A study of Homo sapiens with 6 samples.

Results

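The genes described here are 9 genes of caveolae and of the AHNAK scaffold family: CAV1, CAV2, CAVIN1, CAVIN2, CAVIN3, EHD2, PACSIN2, AHNAK and AHNAK2. They were taken by symbol from a table of 10542 genes and were chosen by name with the difference between DU145-TFEB and DU145-vector in this same table already known, so the differences below are descriptions and carry no p-value. A row was found for 6 of the 9 genes, and CAVIN1, CAVIN3 and EHD2 were not analysed here. The table lists genes with an adjusted p-value below 0.05 in the authors' own comparison of the same 6 libraries, also where the fold change was small. A gene without a row is therefore not thereby unchanged or absent.

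The cells were DU145, a widely used line from human prostate cancer. DU145-TFEB cells had received a lentivirus for overexpression of TFEB, a transcription factor best known for driving lysosomal and autophagy genes, and DU145-vector cells a blank vector lentivirus. Both groups therefore share the cell line and the lentiviral transduction, and 3 mRNA libraries of each were sequenced. Over the listed genes, replicates 1 to 3 of DU145-TFEB summed to 13999961, 16511477 and 14146832 reads, and those of DU145-vector to 14776019, 14603929 and 14217130. Nothing in the labels says whether replicates came from separate cultures, so the spread between them may be technical.

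Caveolae are small flask-shaped pits of the plasma membrane that buffer membrane tension, take part in endocytosis and hold signalling receptors. Caveolins are the integral membrane proteins of their coat, cavins form a peripheral coat on the cytosolic side, and F-BAR proteins and EHD ATPases act at the neck. AHNAK is a giant scaffold protein found under the plasma membrane, where it binds the complex of annexin A2 and S100A10. AHNAK2 is its giant paralog.

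TFEB itself was measured first as a check of the labels. Its normalized counts (reads on the gene divided by the size factor of the library) were 6325, 6301 and 6036 in DU145-TFEB against 127, 124 and 125 in DU145-vector. TFEB was thus 49.6-fold higher in DU145-TFEB, as the labels state. The epithelial keratins KRT8, KRT18 and KRT19 had rows and were abundant in both groups, with KRT8 at 16978 ± 3348 in DU145-TFEB against 26868 ± 1956 in DU145-vector (SD, n = 3). None of the 6 fibroblast, 4 endothelial, 3 adipocyte or 1 leukocyte marker genes looked up had a row, which gives no level for them.

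Short stretches at annotated starts of 3 of the genes are shown because AHNAK and CAVIN2 had nearly the same difference between the groups while AHNAK2 differed in the other direction. They were thus picked by the contrast, and nothing is read from which of them hold a match. The windows were those of RefSeq on GRCh38.p14, from 250 bases before to 50 bases after an annotated start, and the one nearest the start of each gene in the table was read on the strand of the gene. The capitals mark GGAATG, the reverse complement of CATTCC, the core bound by TEAD factors. In AHNAK it lies 28 bases after the RefSeq start at 62545826, within chr11:62545781-62545810, which is inside the gene as the table bounds it, since that begins at 62556235. It lies in CAVIN2 16 bases before the RefSeq start at 191847088, within chr2:191847087-191847116, which is also inside the gene as the table bounds it, since that begins at 191847255, and 167 of the 250 bases before that RefSeq start are annotated as exon. The stretch of AHNAK2 covers the 250 bases before the start at chr14:104978375-104978624, holds no match and overlaps no annotated exon. All 3 genes lie on the minus strand.
AHNAK: ccagcagcctgaGGAATGtggtggttggag
CAVIN2: ttaagagcagctGGAATGcagttcccctga
AHNAK2: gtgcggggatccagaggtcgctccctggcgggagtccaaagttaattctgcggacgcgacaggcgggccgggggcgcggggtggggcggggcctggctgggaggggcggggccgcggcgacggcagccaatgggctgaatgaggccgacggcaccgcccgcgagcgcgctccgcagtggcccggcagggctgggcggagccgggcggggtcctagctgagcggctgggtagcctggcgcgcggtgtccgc

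The nearest windows of 2 of the 6 genes held CATTCC on either strand, against 14.0% of all 35116 windows in the RefSeq table. CAV1 and CAV2, also lower with the deposited scaling, had no match in any of their windows. The E-box core CACGTG was searched on both strands as well, together with the longer GTCACGTG and TCACGTGA, which contain it. These letters occurred in 7.26%, 2.40% and 0.980% of all windows and in no window of the 6 genes, further starts included. Among those further starts, CATTCC or GGAATG occurred at some of PACSIN2. A match is a string of letters and not a bound site, and no match says only that the letters are not in these windows.

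The coat genes CAV1 and CAVIN2 and the scaffold gene AHNAK were lower in DU145-TFEB, while AHNAK2 was higher. AHNAK and CAVIN2 were 3.63-fold and 3.64-fold lower, CAV1 was 2.56-fold lower, and AHNAK2 was 1.68-fold higher. CAV2 was 1.60-fold lower and PACSIN2 1.28-fold higher, but when the trend of all genes against GC content and gene length was removed, CAV2 reversed in all 3 forms of the fit and PACSIN2 in 2 of the 3. The groups did not overlap in any of the 6 genes, which was also so for 99.3% of all listed genes. In bulk libraries, less RNA per cell and fewer cells with the RNA cannot be told apart.

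**Figure D1:**
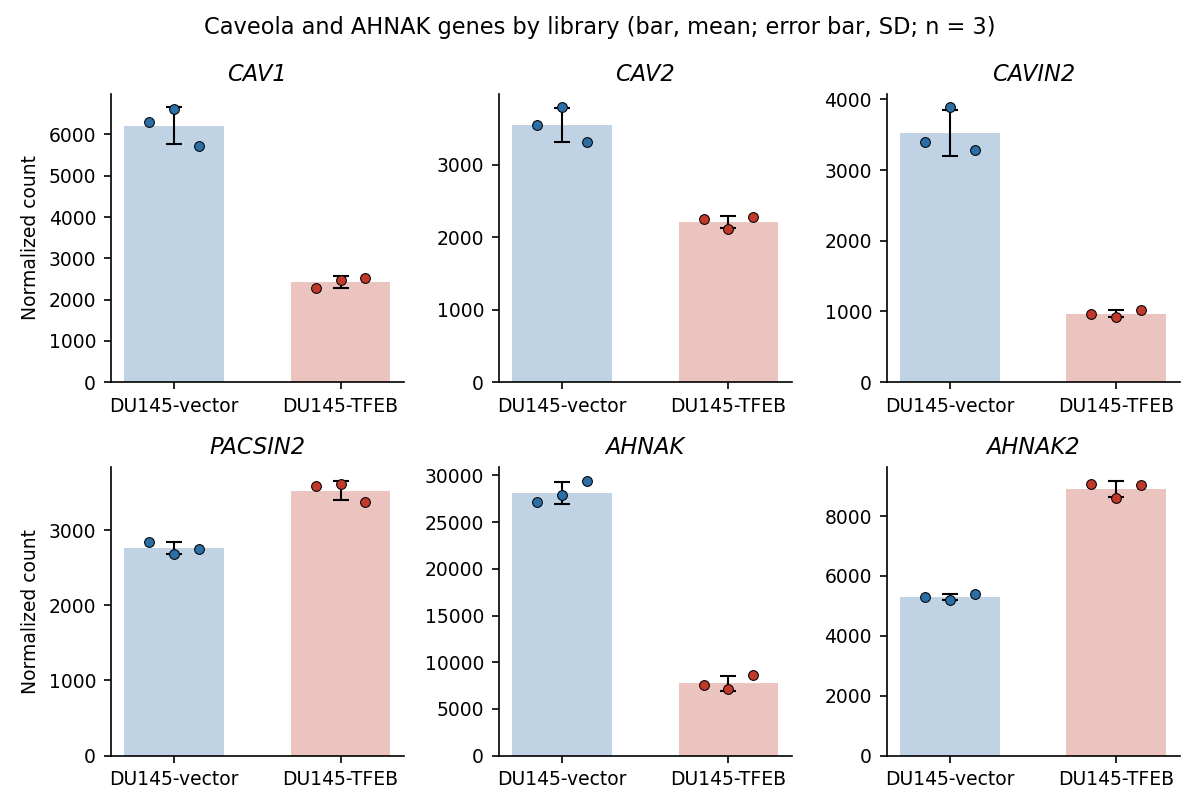
Normalized counts of the 6 genes (y axes, each from 0) in DU145-vector (blue) and DU145-TFEB (red), with a point per library, bars at the mean and error bars of 1 SD (n = 3). CAV1, CAV2, CAVIN2 and AHNAK are lower and PACSIN2 and AHNAK2 higher in every DU145-TFEB library than in any DU145-vector library, while with the GC and length trend removed CAV2 takes the opposite direction in all 3 forms of the fit and PACSIN2 in 2 of the 3.

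CAV1, the principal caveolin outside muscle, lies on chr7:116524785-116561184 (plus strand, ENSG00000105974). Its normalized counts were 2273, 2485 and 2530 in DU145-TFEB against 6290, 6613 and 5723 in DU145-vector. The lowest DU145-vector library was still more than any DU145-TFEB library, by 1.18 on the log2 scale. The log2 fold change of log2(normalized count + 1) was -1.35 (SE 0.078), short of the cutoff of 1.5.

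CAV2, which joins CAV1 in mixed oligomers, lies upstream on the same strand at chr7:116287380-116508541 (ENSG00000105971), and its annotated end is 16243 bases before the start of CAV1. CAV2 had 2245, 2117 and 2280 normalized counts in DU145-TFEB against 3544, 3795 and 3321 in DU145-vector. The groups were apart here too, but by 0.54 on the log2 scale. The log2 fold change was -0.68 (SE 0.074), and with the GC and length trend removed it turned to 0.27.

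CAVIN2, a coat protein of the cavin family, lies on chr2:191834302-191847255 (minus strand, ENSG00000168497). It had 966, 918 and 1017 normalized counts in DU145-TFEB against 3391, 3888 and 3284 in DU145-vector. DU145-TFEB libraries lay close together, and all were far below the lowest DU145-vector library. The log2 fold change was -1.86 (SE 0.085). CAVIN2 shares 233 exonic bases with the antisense gene AC098617.1, whose 6.97 ± 2.67 normalized counts in DU145-TFEB against 29.3 ± 8.92 in DU145-vector (SD, n = 3) were small beside those of CAVIN2. The strand setting of the counting is not given in the sources used here, so reads in exons shared by both genes cannot be told apart.

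PACSIN2, the F-BAR protein that shapes the caveolar neck, lies on chr22:42835412-43015145 (minus strand, ENSG00000100266). Its normalized counts were 3585, 3614 and 3376 in DU145-TFEB against 2841, 2681 and 2746 in DU145-vector. The groups were separate by 0.25 on the log2 scale, the smallest gap among the 6 genes. The log2 fold change was 0.35 (SE 0.066), and with the trend removed it was -0.33, -0.037 when libraries were also centred, and 0.077 with a robust fit of degree 1 and centring.

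AHNAK lies on chr11:62433542-62556235 (minus strand, ENSG00000124942). It was the most abundant of the 6 genes in DU145-vector by count, with 27157, 27871 and 29432 normalized counts, against 7512, 7110 and 8627 in DU145-TFEB. DU145-TFEB replicate 3 was somewhat above the other two, yet all 3 were far below the lowest DU145-vector library. The log2 fold change was -1.87 (SE 0.083). In the longest coding transcript, 1 of 5 exons takes 18170 bases, which is 96.7% of its length.

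AHNAK2 lies on chr14:104937244-104978357 (minus strand, ENSG00000185567) and has the same layout, with an exon of 17483 bases that makes 95.8% of its longest coding transcript. Its normalized counts were 9075, 8596 and 9051 in DU145-TFEB against 5299, 5183 and 5402 in DU145-vector. AHNAK2 was higher in every DU145-TFEB library, with a log2 fold change of 0.75 (SE 0.061). It shares 547 exonic bases with PLD4 on the opposite strand, which had only 40.7 ± 2.19 and 15.8 ± 2.83 normalized counts (SD, n = 3).

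Differentially expressed genes (DEGs) were those with an adjusted p-value below 0.05 in limma whose log2 fold change exceeded 1.5 in size. The table holds genes already selected by the authors' adjusted p-value in the same libraries, and 10539 of the 10542 met the first criterion. In effect the fold change thus decided, and for the genes described here the label is a description of its size. By it AHNAK and CAVIN2 were lower DEGs in DU145-TFEB, and 0 of the 6 genes were higher DEGs. With the GC and length trend removed, neither AHNAK nor CAVIN2 passed the cutoff of 1.5 in any of the 3 forms. Of all listed genes, 566, 564 and 540 were DEGs in these forms. With the deposited scaling, 16.5% of all 10542 listed genes were lower DEGs and 2.54% higher DEGs. CAV1 joined AHNAK and CAVIN2 below a log2 fold change of -1, as did 31.1% of all listed genes. The genes were chosen on this contrast, so nothing is read from these shares. The median log2 fold change was -1.02 over the 6 genes and -0.36 over all listed genes. Set against that median of all genes, AHNAK and CAVIN2 were each lower by a log2 difference of -1.51, CAV1 by -0.997 and CAV2 by -0.33, while PACSIN2 stood at 0.71 and AHNAK2 at 1.11.

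Levels of different genes were compared per kilobase of gene length. In DU145-vector the order was CAV1 with 1521 ± 110 normalized counts per kb, AHNAK with 1446 ± 59.8, CAVIN2 with 1090 ± 99.7, PACSIN2 with 605 ± 17.6, CAV2 with 513 ± 34.2 and AHNAK2 with 282 ± 5.84 (SD, n = 3). CAV1 and AHNAK overlapped between libraries and the other neighbours in this order did not. In DU145-TFEB the order was PACSIN2 with 774 ± 28.6 normalized counts per kb, CAV1 with 595 ± 33.7, AHNAK2 with 475 ± 14.4, AHNAK with 398 ± 40.4, CAV2 with 320 ± 12.4 and CAVIN2 with 299 ± 15.2. Here CAV2 and CAVIN2 overlapped and the other neighbours did not. Divided by the longest annotated transcript instead, CAV2 stood at 671 normalized counts per kb in DU145-TFEB, above AHNAK2 with 486 and AHNAK with 412, so the place of CAV2 depends on which length is used.

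**Figure D2:**
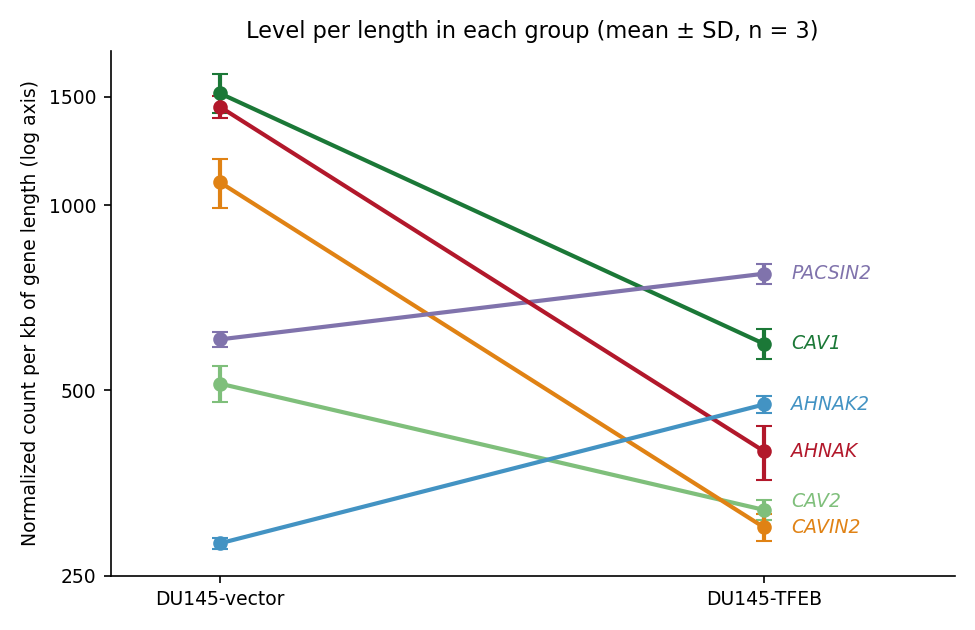
Mean normalized counts per kb of gene length (log y axis) in DU145-vector and DU145-TFEB, with error bars of 1 SD (n = 3) and a line per gene. CAV1, AHNAK and CAVIN2 lead in DU145-vector with 1521, 1446 and 1090, and PACSIN2 leads in DU145-TFEB with 774, while with the GC and length trend removed CAV2 reverses in all 3 forms of the fit and PACSIN2 in 2 of the 3.

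Ratios between paralogs within a library do not depend on its size factor. Per kilobase, AHNAK over AHNAK2 was 4.94, 5.19 and 5.25 in the DU145-vector libraries and 0.798, 0.798 and 0.919 in the DU145-TFEB libraries. AHNAK was thus the more abundant paralog in each DU145-vector library, and AHNAK2 in each DU145-TFEB library. The mean ratio was 5.13 ± 0.16 in DU145-vector and 0.838 ± 0.070 in DU145-TFEB (SD, n = 3), a log2 change of -2.62. With the GC and length trend removed, the log2 change was -1.82 and the DU145-TFEB ratios were 1.04, 1.17 and 1.11, and with the robust fit of degree 1 they were 0.992, 1.11 and 1.07. The DU145-vector mean of 5.13 also fell, to 3.89 and 4.06 in these 2 fits. Each library was fitted on its deviation from the mean of all 6 libraries, so the ratios of both groups move. In these fits AHNAK was near the level of AHNAK2 in DU145-TFEB instead of below it in each library. Which paralog is the more abundant in DU145-TFEB thus depends on the scaling.

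CAV1 over CAV2 was 3.01, 2.96 and 2.92 in the DU145-vector libraries and 1.72, 1.99 and 1.88 in the DU145-TFEB libraries. CAV1 exceeded CAV2 per kilobase in all 6 libraries, and by less in each DU145-TFEB library than in any DU145-vector library. The mean ratio was 2.96 ± 0.044 in DU145-vector and 1.86 ± 0.14 in DU145-TFEB (SD, n = 3). With the trend removed the mean ratios were 3.91 and 1.41, a larger difference in the same direction. Divided by the longest annotated transcript, they were 1.801 in DU145-vector and 1.133 in DU145-TFEB. CAV1 over CAVIN2, the caveolin against the cavin, went the other way, with 1.40 ± 0.063 in DU145-vector and 1.99 ± 0.14 in DU145-TFEB, a log2 change of 0.51 that was 0.22 with the trend removed.

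**Figure D3:**
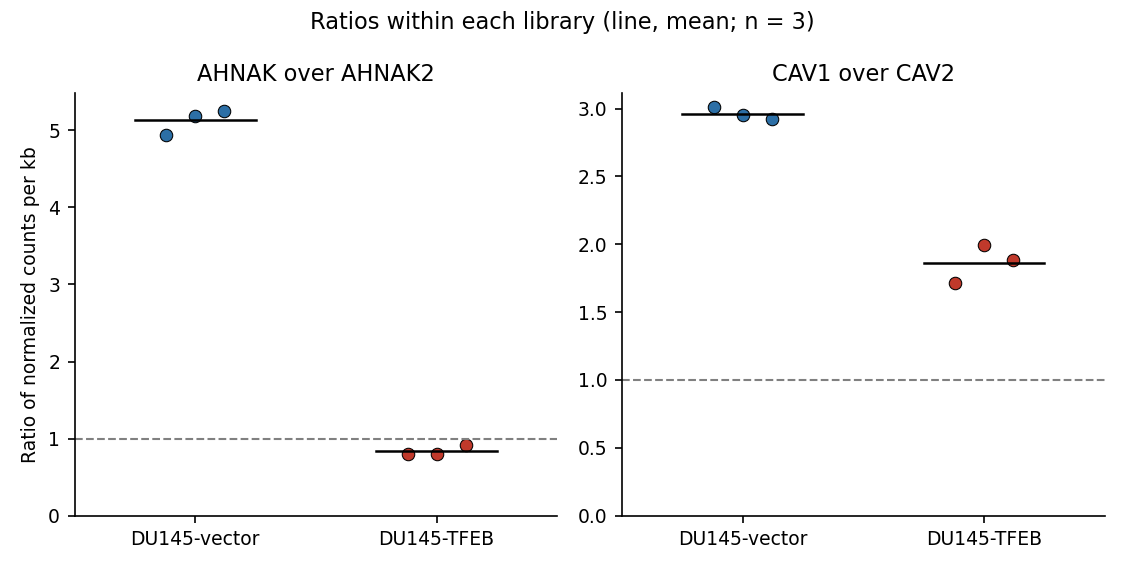
Ratio of normalized counts per kb within each library (y axes from 0) for AHNAK over AHNAK2 (left) and CAV1 over CAV2 (right), with points for libraries and lines at the mean (n = 3). The dashed line marks equal levels, which AHNAK over AHNAK2 crosses from a mean of 5.13 in DU145-vector to 0.838 in DU145-TFEB. With the GC and length trend removed, the means in 2 forms of the fit are 3.89 and 4.06 in DU145-vector. In the same forms the DU145-TFEB libraries lie near equal levels, with means of 1.104 and 1.057.

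Across all listed genes the difference between the groups followed GC content. In 5 classes of 20% of the genes each, from the least to the most GC, the median log2 fold changes were -1.38, -1.10, -0.46, 0.54 and 0.66. The GC content of the longest transcript was 40.7% for CAV2, 43.2% for CAVIN2, 46.2% for CAV1, 49.3% for AHNAK, 53.3% for PACSIN2 and 58.3% for AHNAK2, so the 4 lower genes had less GC than the 2 higher ones. CAV2 and CAVIN2 fell in the second class, CAV1 and AHNAK in the third, and PACSIN2 and AHNAK2 in the fourth. CAV2 at -0.68 was thus above the -1.10 of its class, PACSIN2 at 0.35 was below the 0.54 of its class, and AHNAK at -1.87 was far below the -0.46 of its class. After subtraction of a loess fit on GC content and gene length in every library, the log2 fold change was -1.43 for CAVIN2, -1.28 for AHNAK, -1.21 for CAV1, 0.27 for CAV2, -0.33 for PACSIN2 and 0.53 for AHNAK2. CAVIN2, AHNAK and CAV1 stayed lower and AHNAK2 higher, while CAV2 and PACSIN2 changed sign in this form of the fit, as did 3873 of the 10537 listed genes with a GC value. This form keeps the mean of each library, which leaves the median of all genes at -0.28, and the other 2 forms centre the libraries, the second of them with a robust fit of degree 1. What gives rise to the trend was not tested.

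**Figure D4:**
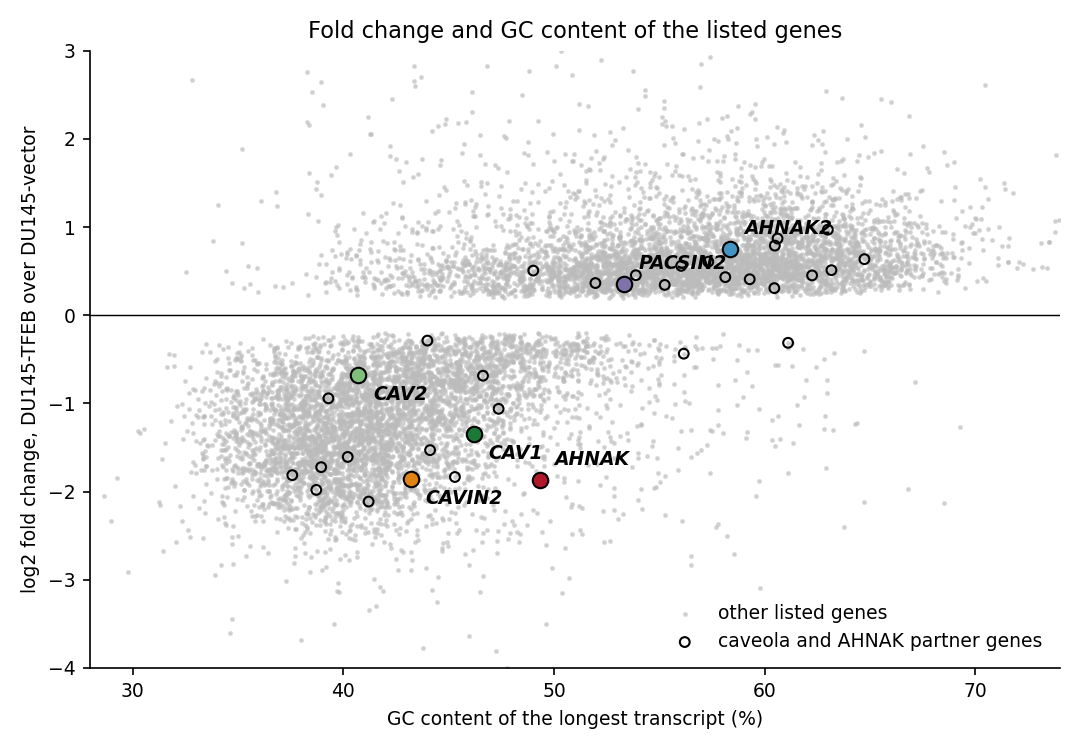
Log2 fold change of DU145-TFEB over DU145-vector (y axis) against GC content of the longest transcript in percent (x axis) for the listed genes (grey), the partner genes (open circles) and the 6 caveola and AHNAK genes (coloured), with 23 of 10537 genes outside the axes. Genes with little GC lie mostly below 0 and genes with much GC above 0, and AHNAK at 49.3% GC lies at -1.87, below the median of -0.46 in its class, while with the trend removed CAV2 reverses in all 3 forms of the fit and PACSIN2 in 2 of the 3.

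The 14 alternatives without a correction for GC content kept every direction among the 6 genes, but most of them could hardly do otherwise. The replicate block leaves the fold change as it is, and leaving out a library cannot reverse groups that do not overlap. Pseudocounts and a minimum of reads barely act on genes with at least 918 reads. Only library size, TMM, DESeq2 and quantile normalization changed the scaling. Under DESeq2 the log2 fold changes shifted up, with the median of all listed genes at -0.11, and under quantile normalization that median was -0.03. Over 17 alternatives AHNAK ranged from -2.17 to -0.99, CAVIN2 from -1.91 to -1.13, CAV1 from -1.41 to -0.91, CAV2 from -0.73 to 0.56, PACSIN2 from -0.33 to 0.60 and AHNAK2 from 0.53 to 0.99. AHNAK, CAVIN2 and CAV1 were lower and AHNAK2 was higher under all 17.

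**Figure D5:**
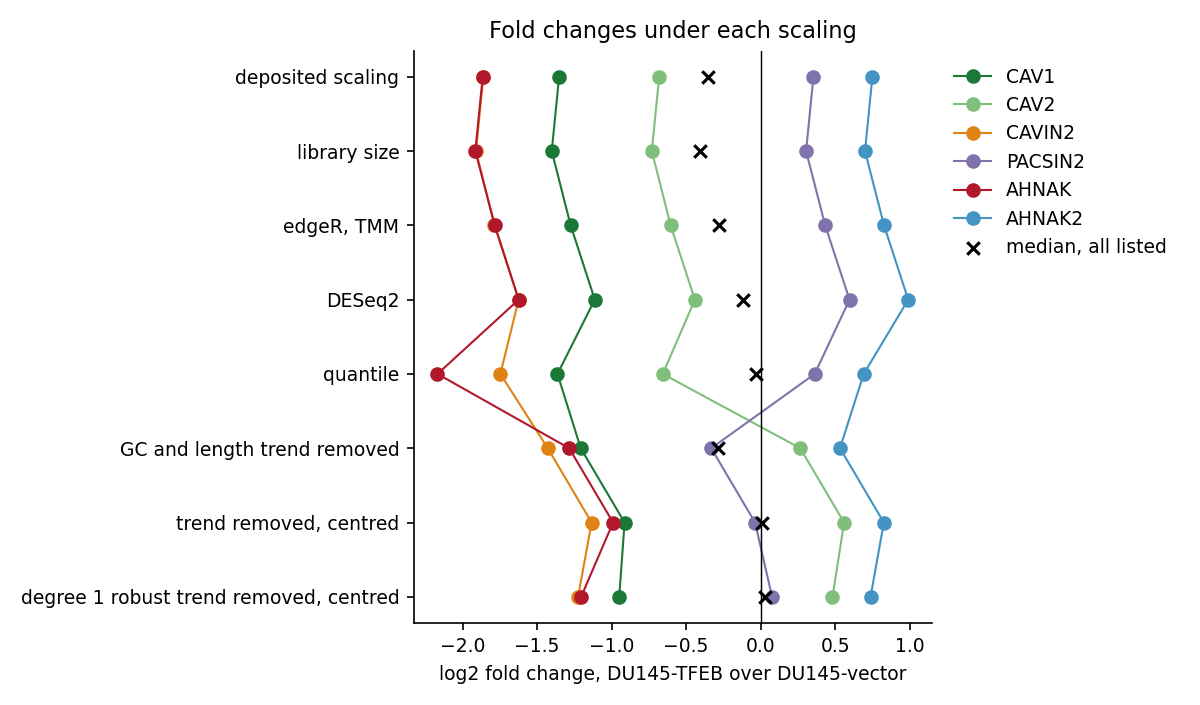
Log2 fold change of DU145-TFEB over DU145-vector (x axis) for each of the 6 genes under 8 scalings (y axis), with the median of all listed genes as a cross. AHNAK, CAVIN2 and CAV1 lie below 0 and AHNAK2 above 0 throughout, while CAV2 moves above 0 in all 3 fits with the trend removed and PACSIN2 moves below 0 in 2 of them.

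The spread within a group does not use the contrast on which the genes were chosen. In DU145-vector, replicate 2 was the highest library and replicate 3 the lowest for CAV1, CAV2 and CAVIN2, whereas AHNAK was highest in replicate 3. The deviations of CAVIN2 from the group mean were 0.15 in replicate 2 and -0.10 in replicate 3 on the log2 scale, and those of CAV1 were 0.09 and -0.11. The difference between the 20% of genes with the most and the 20% with the least GC deviated by -0.24 and 0.14 in the same libraries, opposite in sign to these 3 genes, and its part in their spread was not tested. In DU145-TFEB, AHNAK had the widest spread of the 6 genes, from -0.12 in replicate 2 to 0.16 in replicate 3, and the GC difference deviated by 0.31 and -0.30 there. CAV1, CAV2 and CAVIN2 were also highest in replicate 3 of DU145-TFEB. Their lowest library differed, with CAV1 at -0.095 in replicate 1, and CAV2 at -0.064 and CAVIN2 at -0.073 in replicate 2. How many other listed genes have these orders was not counted. With 3 libraries a group these are descriptions only.

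The partners of caveolae and AHNAK were read from a list of 37 genes, of which 28 had a row. Of these, 15 were higher and 13 lower in DU145-TFEB, with 7 lower and 0 higher DEGs and a median log2 fold change of 0.33, beside 16.5% lower and 2.54% higher DEGs among all listed genes. With the trend removed, 0 of the 28 were DEGs in any of the 3 forms of the fit. Of all listed genes, only 566, 564 and 540 were DEGs in these forms, so nothing is read from the 0. Of the 28, 13 changed sign with library means kept, 9 with centring and 6 with the robust fit of degree 1. Of the 10537 listed genes with a GC value, 3873, 3673 and 3122 did so in the same forms. The medians of the 28 partners were -0.39, -0.10 and -0.10, so the direction of the list as a whole depends on the scaling. Their summed normalized counts were 137179, 152466 and 136452 in DU145-TFEB against 138918, 133411 and 140708 in DU145-vector, and these ranges overlap. The 6 caveola and AHNAK genes together had 25656, 24841 and 26881 normalized counts in DU145-TFEB against 48522, 50030 and 49908 in DU145-vector.

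Among the 20 caveola partners with a row, the lower DEGs were 5 receptors or kinases and an F-BAR protein. These were ABL2, a tyrosine kinase, at a log2 fold change of -1.84, BMPR2, the type II BMP receptor, at -1.81, and TGFBR1, the type I TGF-beta receptor, at -1.72. LRP6, a Wnt co-receptor, was at -1.61, ROR1, a receptor that scaffolds caveolae, at -1.53, and FNBP1L at -1.98. All 6 had between 37.6% and 45.3% GC, and with the trend removed they ranged from -0.997 to -0.52, from -0.70 to -0.23 with centring, and from -0.96 to -0.30 with the robust fit of degree 1. TGFBR2 was at -1.06, and lay between -1.04 and -0.74 over the 3 forms with the trend removed.

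None of the other caveola partners was a DEG. DNM2, the ubiquitous dynamin that cuts vesicles from the membrane, was at 0.87 with 6858 ± 264 normalized counts in DU145-TFEB against 3753 ± 163 (SD, n = 3), and lay between 0.47 and 0.77 over the 3 forms with the trend removed. INSR, the insulin receptor, was at 0.51 and lay between 0.862 and 1.157. PACSIN3, a relative of PACSIN2, was at 0.51, the flotillin FLOT2 at 0.43 and the tyrosine kinase SRC at 0.41, and these turned negative in all 3 forms.

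The values of a further group depended on the form of the fit. PACSIN1 was at 0.79, the ATPases EHD3 and EHD4 at 0.45 and 0.36, the actin crosslinker FLNA at 0.45 and DNM1 at 0.31. With the trend removed and library means kept they were at -0.21, -0.28, -0.05, -0.20 and -0.22, but with centring they stayed at or above 0, at 0.08, 0.01, 0.24, 0.09 and 0.07. FLOT1 was at 0.61, then at -0.31, at -0.01 with centring and at 0.06 with the robust fit of degree 1. EHD1 was at -0.31 with groups that overlapped, and at -1.34 and -1.05 in the same fits.

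Of 8 AHNAK partners and relatives with a row, S100A10 and ANXA2, which form the complex that AHNAK binds, were at -0.44 and -0.29, with groups that did not overlap. S100A10 had 8246 ± 673 normalized counts in DU145-TFEB against 11135 ± 215 in DU145-vector, and ANXA2 25329 ± 1154 and 30913 ± 953 (SD, n = 3). Both lay nearer to 0 than AHNAK at -1.87, but with the trend removed S100A10 was at -1.21, AHNAK at -1.28 and ANXA2 at 0.44. With centring they were at -0.92, -0.99 and 0.74, and with the robust fit of degree 1 at -0.83, -1.20 and 0.64. MYOF, a ferlin of membrane repair, was at -0.69 and ANXA1 at -0.94, but with the trend removed they were at -0.29 and -0.06, with centring at 0.0024 and 0.23, and with the robust fit of degree 1 at -0.06 and 0.18. PRX was at 0.97, ANXA6 at 0.56 and PLCG1 at 0.34, with the trend removed at -0.06, -0.30 and 0.06, with centring at 0.24, -0.0098 and 0.35, and with the robust fit of degree 1 at 0.28, 0.13 and 0.34. CACNB2, a calcium channel subunit, was a lower DEG at -2.11 but had only 4, 0 and 8 reads in DU145-TFEB against 18, 17 and 11 in DU145-vector.

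The genes most like CAV1 and AHNAK over the 6 libraries were found by the Euclidean distance between log2 values centred on the DU145-vector mean, among 8616 genes with a mean of at least 100 normalized counts. This distance mostly reflects the difference between the groups, on which CAV1 and AHNAK were chosen. The nearest genes therefore have about the same log2 fold change by construction. For CAV1 these were HNRNPH1, MSH6, TRMT6, EIF2S1 and CCDC47, at distances from 0.073 to 0.11. For AHNAK they were ACSL4, ABL2, TJP1, MET and RAB3B, at 0.093 to 0.17. All 10 had less GC than CAV1 or AHNAK, from 36.3% to 45.3%. With the trend removed, the 5 genes like CAV1 lay between -0.66 and -0.22, against -1.21 for CAV1, and the 5 like AHNAK between -1.08 and -0.83, against -1.28 for AHNAK. Since the 10 genes were picked for their likeness before this removal, nothing is read from these differences.

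Transcripts of the mitochondrial genome moved with the groups. All 8 looked up were higher in DU145-TFEB, and they took 4.86%, 3.96% and 4.86% of the normalized counts on listed genes there, against 2.51%, 2.67% and 2.68% in DU145-vector. KRT8, KRT18 and KRT19 were lower, at log2 fold changes of -0.68, -0.78 and -0.38, with KRT19 overlapping between the groups, and with the trend removed they were at -1.54, -1.63 and -1.47, or -1.24, -1.34 and -1.17 with centring. DES, the 1 of 3 muscle markers with a row, was at 1.85 on 8.78 to 51.6 normalized counts. The part of these differences in the values of the caveola and AHNAK genes was not tested.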

How the data were processed

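RNA-sequencing libraries of DU145-TFEB and DU145-vector (n = 3 each) were grouped by the sample labels. The signal deposited by the authors is a normalized count, the reads on a gene divided by 1 size factor per library. They also deposited group means and, for each gene, a log2 fold change and p-values of their own comparison, none of which were used. The submitters' processing notes name CASAVA 1.8, HISAT2 2.1.0, edgeR and GRCh38, and the study's methods name DESeq2. The counting program and its strand setting are not given in the sources used here. Positions and gene lengths of all 10542 genes equal GENCODE 29.

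The members and all lists were chosen with earlier results of these data known. log2(normalized count + 1) was tested with limma 3.58.1 (mean-variance trend, R 4.3.3) in all 6 libraries, with p-values adjusted over all listed genes. A minimum mean of 1 removed 0 genes. Named genes are all members and partner genes with a row, TFEB, and the 5 nearest profiles each of CAV1 and AHNAK, beside the marker genes looked up, and some genes of these lists are not reported here. AC098617.1, PLD4, ARFGAP3 and AC002066.1 were named for their overlaps. PACSIN2 shares 155 exonic bases with ARFGAP3 on the same strand, and CAV2 shares 76 with AC002066.1 on the opposite strand. Neither ARFGAP3 nor AC002066.1 has a row, so no level is given for them. Reads were recovered by dividing by each library's step (100% whole within 0.01) and used for DESeq2 1.42.0 and edgeR 4.0.16. Size factors lay between 0.950 and 1.099. The 6 genes had at least 918 reads in every library, so counting error was at most 3.30%. Read totals cover listed genes only and are not library depth. GC content and gene length were fitted by loess (span 0.5, degree 2) in each library and subtracted, keeping the mean of the library. This form was settled after the values of another (degree 1, robust, libraries centred) had been seen, and both are reported. Libraries of 1 group differed by more than sampling noise (chi-square per gene 3.00 to 27.6), so none was treated as a library deposited again, which does not tell separate cultures from repeat preparations. The fit was tested on simulated data.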

Additional observations from a re-analysis of the deposited data

How the results depend on the processing

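The listed genes are a selection made on the same 6 libraries, so every scaling estimated from them is one of that selection. Of all listed genes, 2009 were DEGs (1741 lower, 268 higher), 1326 with a pseudocount of 8 and 4161 with a log2 cutoff of 1. The split was 1078 lower and 484 higher with DESeq2 and 808 and 563 with quantile normalization. After removal of the GC and length trend there were 566 DEGs (387 lower, 179 higher), with libraries also centred 564 (241, 323), and with the degree 1 robust fit and centring 540 (269, 271). The last pair were added after seeing the data, and the form of the first was also settled with values in view. Leaving out each library in turn gave 1584 to 2316.

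Of the 6 caveola and AHNAK genes, 2 were DEGs, also with each library left out (2 to 2), and 0 under each of the 3 removals of the trend. Of the 28 partners, 7 were DEGs, 4 with DESeq2, 3 with quantile normalization, 0 under each of the 3 removals, and 5 to 7 with a library left out. CAV2 reversed to 0.27, to 0.56 with centring and to 0.48 with the degree 1 fit and centring. PACSIN2 reversed to -0.33 and to -0.037 with centring, but was 0.08 with the degree 1 fit and centring, so its direction depends on the form of the fit. AHNAK was -0.99 and -1.20, and CAVIN2 -1.13 and -1.23, in the 2 centred fits. The cause was not tested.

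Libraries with the same number did not deviate together (correlations -0.06, -0.42 and -0.35 over 8617 genes). Those with different numbers had correlations from -0.31 to 0.45. Deviations of a whole library, such as that of its GC difference, enter these values. They therefore do not settle whether the numbers pair cultures or preparations. With the replicate block there were 2011 DEGs in all, 2 among the 6 genes and 7 among the partners.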

Other observations

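CAV2 and CAV1 lie beside MET on the long arm of chromosome 7. All 5 listed genes in the window of 500 kb to either side on GRCh38, CAV1 and CAV2 included, were lower in DU145-TFEB. So were 5527 of all 10542 listed genes. CAV1 and CAV2 were chosen on this contrast and the window after its values were seen, so nothing is read from this count. TES, MET and CAPZA2 had 43.7%, 42.4% and 40.7% GC, in the class of genes whose median log2 fold change was -1.10. TES, a focal adhesion protein gene at chr7:116210493-116258783, had a log2 fold change of -1.12, and CAV2 and CAV1 followed at -0.68 and -1.35. MET, the receptor of hepatocyte growth factor at chr7:116672390-116798386, was a lower DEG at -1.89, with 976, 845 and 1189 normalized counts in DU145-TFEB and 3650, 3682 and 3727 in DU145-vector. CAPZA2, an actin capping protein gene, was at -0.99. With the GC and length trend removed, TES, CAV1 and MET were still lower, at -0.64, -1.21 and -1.08, while CAV2 was at 0.27 and CAPZA2 at 0.01. With libraries also centred, TES, CAV1 and MET were at -0.34, -0.91 and -0.79, and CAV2 and CAPZA2 at 0.56 and 0.31.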
